A study of Mus musculus with 9 samples.

Results

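The AP-1 and immediate early genes described here were 10 of the 38203 genes in the expression table: the 4 Fos family genes Fos, Fosb, Fosl1 and Fosl2, the 3 Jun family genes Jun, Junb and Jund, and Atf3, Egr1 and Ier3. They were chosen by gene symbol, each symbol had a single row, and all 10 were among the 16897 genes that passed the filter on low values. RNA came from the epidermis of individual E18.5 mouse embryos, on a mixed C57BL6/129Sv background with back-crossing to C57BL6, in 9 libraries. WT was represented by 2 libraries, KO embryos (Esrp1 KO, Esrp2 WT) by 3, KH embryos (Esrp1 KO, Esrp2 heterozygous) by 2, and DKO embryos (Esrp1 KO, Esrp2 KO) by 2. Both alleles were germline knockouts, so loss was not limited to keratinocytes: Esrp1 lacked internal exons after recombination by Zp3-Cre, which acts in the oocyte, and the Esrp2 allele came from a targeted ES cell line. The sample labels name the controls Esrp1 WT/Esrp2 WT, whereas the design text gives them as lacking Esrp2; Esrp2 was high in both, and they are called WT here. Trunk skin from every genotype was floated on trypsin in the cold overnight before the epidermis was peeled off. How these genes respond to that handling was not tested.

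Esrp1 and Esrp2 are RNA binding proteins that set the splicing pattern of epithelial cells. AP-1 is a transcription factor made of a pair of bZIP proteins, usually a Jun protein with a Fos or ATF protein. It binds sequences that include TGACTCA and TGAGTCA. In keratinocytes AP-1 acts on genes of differentiation, of the cornified envelope and of wound repair. Fos, Fosb, Egr1, Atf3 and Ier3 are among the immediate early genes. Growth factors, stress and injury switch such genes on within minutes through MAP kinases and SRF, without new protein synthesis. Their messages are short lived. Fosl1 encodes Fra-1 and Fosl2 encodes Fra-2, which bind DNA with a Jun partner but lack the strong activation domain of Fos.

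Gene coordinates are from GRCm38 with the GENCODE M21 annotation. Fosl1 lies on chromosome 19 at 5447547 to 5455946 (plus strand) and Fos on chromosome 12 at 85473890 to 85477273 (plus strand). Jun lies on chromosome 4 at 95049034 to 95052222 (minus strand). On the opposite strand, Fosl1 overlaps Ccdc85b, Jun overlaps Junos, Junb overlaps Prdx2, Jund overlaps Gm11175 and Atf3 overlaps Gm24748. The library kit keeps strand, but the strand setting used for counting is not given in the sources used here. Ccdc85b had between 7.53 and 14.7 FPKM in all 9 libraries, with a difference between DKO and WT of -0.02 (standard error 0.32) on the scale of log2(FPKM + 1). The loci that the table gives for Jun, Junb and Jund reach past the annotated genes.

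Promoter sequences from RefSeq (GRCm38.p6) were matched for 8 of the 10 genes, all but Fosl1 and Egr1. They were also matched for 19 genes of a list of described AP-1 targets. The 250 bases before the RefSeq start were searched. This start can differ from that of GENCODE. The Jund window ended at 70697738, and the annotated gene starts at 70698949. The Atf3 window, on the minus strand, ran from 191183334 to 191183583, and the annotated gene ends at 191218039. The pattern TGANTCA, with any base at N, reads the same on both strands. It was in none of the 8 and in 11 of the 19 target genes, against 6.75% of 32851 promoters. In Sprr1b the match was TGAATCA, and in the other matched target genes it was TGACTCA or TGAGTCA. The motif TGACGTCA, bound by CREB and by Jun with ATF partners and also the same on both strands, was in none of the 8 and in 1 of the 19, Areg, against 1.55% of promoters. Its variant TGACATCA was searched on both strands after the Jun sequence had been read. It was in Jun alone among the 8 and in 1 of the 19, Sprr1a, against 2.93% of promoters. The letters TATAAA, searched on the gene's strand, were in Fos alone among the 8 and in 10 of the 19, against 7.59% of promoters. The targets were listed because AP-1 is described to act on them, so their share is a description of the list. The last 150 bases before the start are shown for Fos and Jun, as the members with a match, and for Sprr1b and Areg, as the AP-1 target genes called below whose promoters were matched. Capitals mark the match. It is TATAAA in Fos (chr12:85473740-85473889, plus strand) and TGACATCA in Jun (chr4:95052223-95052372, minus strand). It is TGAATCA in Sprr1b (chr3:92438780-92438929, minus strand) and TGACGTCA in Areg (chr5:91139449-91139598, plus strand).
Fos: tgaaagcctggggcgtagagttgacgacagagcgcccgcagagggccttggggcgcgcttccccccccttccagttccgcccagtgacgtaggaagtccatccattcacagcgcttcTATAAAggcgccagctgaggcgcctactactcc
Jun: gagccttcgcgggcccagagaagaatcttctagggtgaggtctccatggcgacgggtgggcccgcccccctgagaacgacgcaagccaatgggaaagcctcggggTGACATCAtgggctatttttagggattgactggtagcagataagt
Sprr1b: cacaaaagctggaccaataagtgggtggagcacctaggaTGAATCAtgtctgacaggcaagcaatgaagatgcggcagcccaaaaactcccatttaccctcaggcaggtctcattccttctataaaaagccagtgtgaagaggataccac
Areg: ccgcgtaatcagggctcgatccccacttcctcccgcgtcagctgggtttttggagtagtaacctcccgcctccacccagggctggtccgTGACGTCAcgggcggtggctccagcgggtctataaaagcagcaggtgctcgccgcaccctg
Counted back from the start, the first base of the match was at -33 in Fos, -45 in Jun, -111 in Sprr1b and -61 in Areg. TATAAA, left in lower case, is also in the Sprr1b and Areg stretches, at -30 and -31. A match is not evidence of binding, and the lack of one says only that these letters are not in the window.

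The authors expressed each gene as FPKM, in which fragments are scaled to transcript length and to the mapped fragments of the library, so that levels can be compared between genes. The table gives no read counts, so the number of reads behind each value cannot be given. The values of a library summed to between 713318 and 1130713, and 11851 to 12228 genes per library reached 1 FPKM. Esrp1 averaged 130 FPKM in WT and 28.5 to 40.4 FPKM in the other genotypes, where the deleted allele can still give transcripts, and Esrp2 was at 0.0843 and 0.0463 FPKM in DKO against 38.6 to 136 FPKM elsewhere. The keratinocyte markers (Krt5, Krt14, Krt1, Krt10 and others) summed to 62678 and 76380 FPKM in WT, 36207 to 83268 FPKM in KO, 41122 and 54883 FPKM in KH and 40784 and 56163 FPKM in DKO. Their sums in KH and DKO thus lay below both WT libraries, though 0 of the 12 were called in DKO against WT, and the part of this in the differences of Fosl1 and Egr1 was not tested. Skeletal muscle markers summed to at most 1.504 FPKM and endothelial markers to at most 0.415 FPKM, with 0 markers of any list at 0 in all 9 libraries. Xist, made from the inactive X chromosome of females, was at 76.2 to 180 FPKM in the 3 KO libraries and at 111 FPKM in WT replicate 2, and at or below 0.178 FPKM in the other 5 libraries, so the comparison of DKO with KO, or of KH with KO, cannot be told apart from the sex of the embryos. In whole epidermis, fewer cells of a type and less RNA per cell cannot be told apart.

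In WT epidermis the 10 genes spanned from Fos, at 82.6 ± 52.8 FPKM (SD, n = 2), to Fosb, at 0.205 ± 0.226 FPKM (SD, n = 2). Between them, in falling order of FPKM, stood Junb (63.5 ± 20.8), Fosl2 (54.7 ± 8.46), Jund (34.2 ± 5.38), Jun (33.0 ± 4.95), Ier3 (26.0 ± 3.64), Egr1 (10.3 ± 0.517), Atf3 (2.33 ± 0.686) and Fosl1 (0.471 ± 0.134). The libraries of Fos overlapped those of Junb, those of Junb overlapped those of Fosl2, and those of Jund overlapped those of Jun; the other neighbours in this order were separate. Fos and Junb remained the highest of the 10 by mean in every genotype. In DKO, Fosl1 stood above Atf3 in the order, although the libraries of this pair overlapped.

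**Figure D1:**
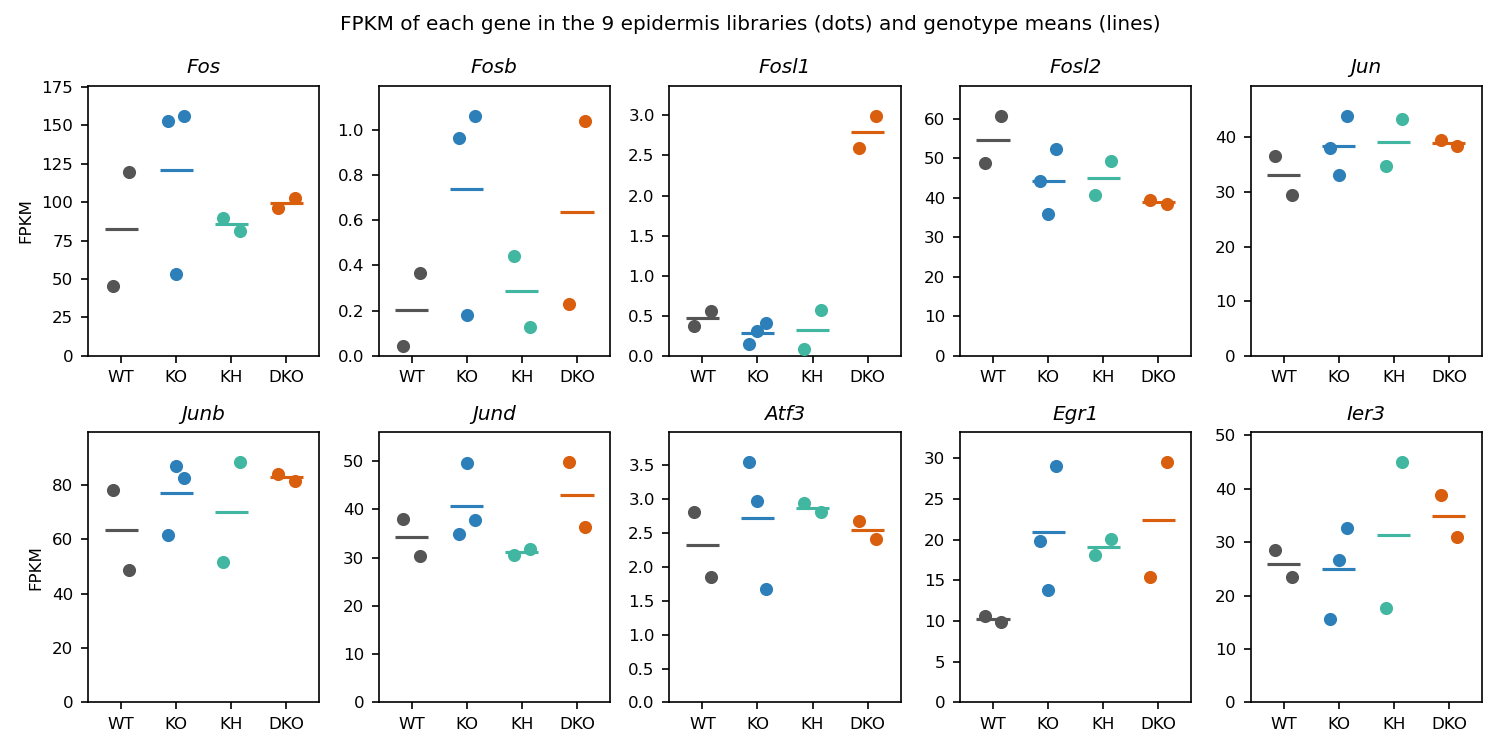
FPKM (vertical axis, from 0) of each of the 10 genes in the 9 libraries, with 1 dot per library and a line at each genotype mean, for WT, KO, KH and DKO. Both DKO dots of Fosl1 lie at 2.60 and 2.99 FPKM, above the other 7 libraries, and the Egr1 dots of all 7 libraries without Esrp1 lie above both WT dots.

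Fosl1 was higher in DKO epidermis than in any other genotype. Its level was 2.60 and 2.99 FPKM in DKO, 0.0886 and 0.570 FPKM in KH, 0.145, 0.313 and 0.410 FPKM in KO, and 0.376 and 0.566 FPKM in WT. Both DKO libraries lay above the other 7, which overlapped one another across genotypes, and over all tested genes 5.33% had both DKO libraries above the other 7. The DKO average was 5.93 times that of WT, 9.66 times that of KO and 8.48 times that of KH. The ratio to KH was 4.90 without KH replicate 1 and 31.5 without KH replicate 2, and those to WT and KO were 4.94 to 7.43 and 7.73 to 12.2 without any 1 library of the pair compared. Calls required an adjusted p under 0.05 by limma (Benjamini-Hochberg) together with a change of average FPKM over 2-fold. On the scale of log2(FPKM + 1), which understates the change of a gene this low, Fosl1 rose in DKO by 1.37 over WT (standard error 0.19, 95% confidence interval 0.93 to 1.80), and limma with Benjamini-Hochberg adjustment gave an adjusted p = 0.0169. Fosl1 likewise rose by 1.56 over KO (standard error 0.17, adjusted p = 0.00447 by limma) and by 1.54 over KH (standard error 0.19, adjusted p = 0.0111 by limma). In KO and KH the difference from WT was -0.19 (95% confidence interval -0.59 to 0.21) and -0.17 (-0.60 to 0.27).

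The call against WT was lost when any 1 of the 4 DKO and WT libraries was left out, with limma adjusted p values for Fosl1 of 0.0944 and 0.131 without DKO replicates 1 and 2, and of 0.172 and 0.130 without WT replicates 1 and 2. Against KO it was lost without DKO replicate 2 (adjusted p = 0.0552 by limma), and against KH without DKO replicate 1 (0.0746) or DKO replicate 2 (0.0856). The log2 difference stayed between 1.27 and 1.80 in these leave-one-out fits of all 3 comparisons. The Fosl1 calls against WT, KO and KH also ended with a pseudocount of 0.1 (adjusted p = 0.135, 0.0603 and 0.107 by limma) and with no filter on low values (0.196, 0.121 and 0.206), and that against KH with only the 2 genotypes fitted (0.231). A replicate block of the numbers in the sample descriptions, which left 1 residual degree of freedom, ended all 3 as well (0.490, 0.328 and 0.381).

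Egr1, a zinc finger transcription factor induced by serum and wounding (chromosome 18, 34859823 to 34864984, plus strand), was higher in every library without Esrp1 than in both WT libraries, a pattern found in 5.07% of tested genes; 5.08% had all 7 below WT, which no member showed. Egr1 had 10.6 and 9.90 FPKM in WT, 19.9, 13.8 and 29.0 FPKM in KO, 18.1 and 20.1 FPKM in KH, and 15.4 and 29.5 FPKM in DKO. The WT libraries were close together, while the highest and lowest DKO and KO libraries were further apart than the genotype mean was from that of WT. The difference from WT was 0.99 in DKO (standard error 0.37, 95% confidence interval 0.15 to 1.83), 0.90 in KO (standard error 0.34, 0.13 to 1.67) and 0.83 in KH (standard error 0.37, -0.01 to 1.67). Egr1 was not called in any of these, with adjusted p values from limma of 0.294, 0.853 and 0.980. Its difference between DKO and KO was 0.09 (95% confidence interval -0.68 to 0.86), and between DKO and KH 0.16 (-0.69 to 1.00), so levels up to about that far apart were not detectable. The 3 comparisons with WT share the same 2 WT libraries. Markers of 2 other cell types were also above WT in all 7 libraries without Esrp1. The 7 melanocyte markers summed to 45.8 to 51.2 FPKM in WT, 71.5 to 89.7 FPKM in KO, 60.0 to 158 FPKM in KH and 99.0 to 216 FPKM in DKO, with 0 called. The 10 dermal fibroblast markers summed to 253 to 299 FPKM in WT, 386 to 498 FPKM in KO, 373 to 468 FPKM in KH and 350 to 358 FPKM in DKO, with 0 called. Most of the fibroblast sum was Postn, at 176 to 211 FPKM in WT and 272 to 343 FPKM in the other libraries. Without Postn, the other 9 summed to 77.3 to 87.4 FPKM in WT and 45.6 to 78.0 FPKM in DKO, with no rise in DKO, and to 84.7 to 155 FPKM in KO and 52.3 to 143 FPKM in KH. The part of these markers in the Egr1 difference was not tested.

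**Figure D2:**
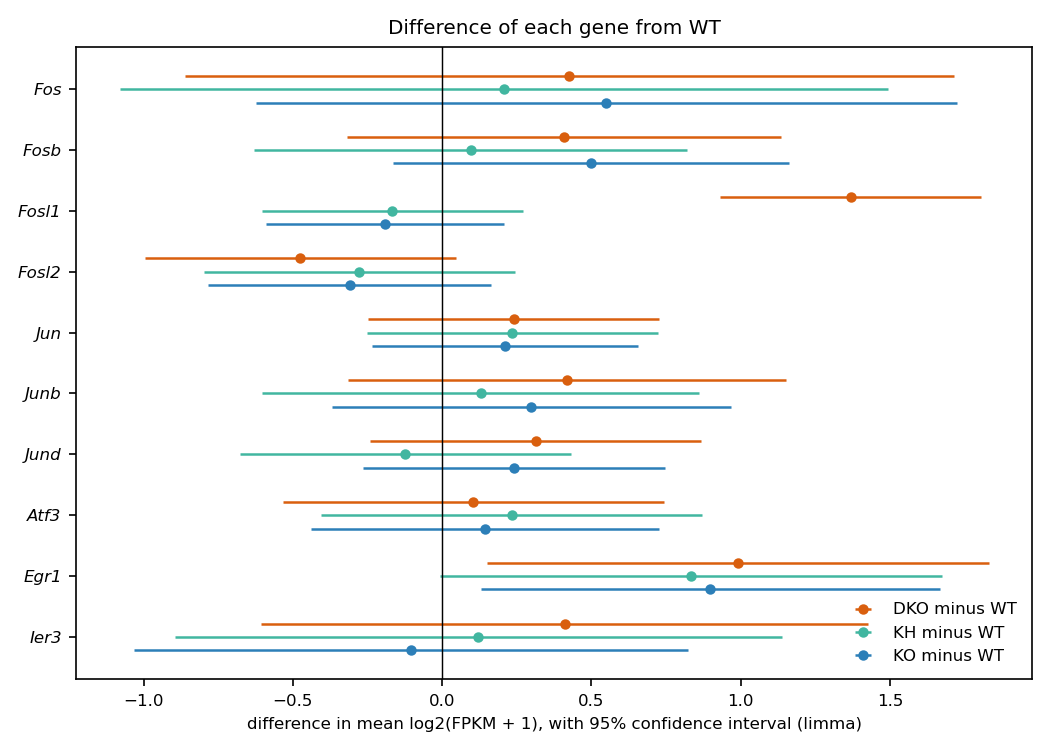
Difference in mean log2(FPKM + 1) between each genotype and WT (horizontal axis) for the 10 genes, with dots at the estimate and bars for the 95% confidence interval from limma. The DKO interval of Fosl1 runs from 0.93 to 1.80, the Egr1 estimates lie between 0.83 and 0.99, and the intervals of the other 8 genes include 0 in all 3 comparisons.

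Fos, the founding member of the family, varied more between embryos than between genotypes. It had 45.3 and 120 FPKM in WT, 153, 53.5 and 156 FPKM in KO, 90.0 and 81.1 FPKM in KH, and 96.3 and 103 FPKM in DKO. Both the lowest and the highest value of WT and of KO enclosed all the DKO and KH libraries. Its residual standard deviation within genotypes was 0.71 on the log2(FPKM + 1) scale, higher than that of 96.2% of the 12197 genes averaging at least 1 FPKM, whose median was 0.28. The difference between DKO and WT was 0.43 (95% confidence interval -0.86 to 1.71), so a change of up to 3.28-fold upward was within the interval. Fosb, a close relative of Fos and also an immediate early gene, was low throughout. It had 0.0449 and 0.365 FPKM in WT, 0.964, 0.182 and 1.06 FPKM in KO, 0.443 and 0.127 FPKM in KH, and 0.230 and 1.04 FPKM in DKO. The genotypes overlapped, and the difference between DKO and WT was 0.41 (standard error 0.32).

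Fosl2 was the only member with both DKO libraries below both WT libraries, as were 26.4% of tested genes. It had 48.8 and 60.7 FPKM in WT, 44.3, 36.0 and 52.3 FPKM in KO, 40.6 and 49.2 FPKM in KH, and 39.3 and 38.4 FPKM in DKO. The DKO average was 71.0% of that of WT, a difference of -0.48 (standard error 0.23, 95% confidence interval -0.995 to 0.045) with an adjusted p = 0.402 by limma. Fosl2 was thus not called.

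The Jun family genes encode the partners that Fos proteins need to bind DNA. Jun had 36.5 and 29.5 FPKM in WT, 38.01, 33.1 and 43.9 FPKM in KO, 34.7 and 43.3 FPKM in KH, and 39.4 and 38.4 FPKM in DKO. Jun was the steadiest of the 10 genes, with a residual standard deviation of 0.18 on the log2 scale and a difference between DKO and WT of 0.24 (95% confidence interval -0.25 to 0.73), which leaves room for a 1.66-fold increase at most. Junb, an AP-1 subunit that restrains keratinocyte cytokine production, had 78.2 and 48.7 FPKM in WT, 61.5, 87.0 and 82.6 FPKM in KO, 51.8 and 88.3 FPKM in KH, and 84.2 and 81.6 FPKM in DKO. The WT libraries of Junb were further apart than the mean of WT was from that of DKO, and the difference was 0.42 (standard error 0.32). Jund, the subunit expressed most constantly in resting cells, had 37.97 and 30.4 FPKM in WT, 34.8, 49.6 and 37.8 FPKM in KO, 30.5 and 31.7 FPKM in KH, and 49.7 and 36.2 FPKM in DKO, with a difference between DKO and WT of 0.31 (standard error 0.24). All 3 intervals included 0.

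Atf3, a bZIP protein of the stress response that pairs with Jun proteins, had 2.81 and 1.84 FPKM in WT, 3.54, 2.97 and 1.67 FPKM in KO, 2.94 and 2.80 FPKM in KH, and 2.68 and 2.41 FPKM in DKO. The lowest and the highest values were both in KO, and the difference between DKO and WT was 0.10 (95% confidence interval -0.53 to 0.74). Ier3, an early response gene that acts on cell survival and on ERK signalling, had 28.6 and 23.4 FPKM in WT, 15.7, 26.7 and 32.7 FPKM in KO, 17.6 and 44.9 FPKM in KH, and 38.8 and 31.04 FPKM in DKO. Both DKO libraries of Ier3 lay above both WT libraries, but KH spanned nearly the whole range, and the difference between DKO and WT was 0.41 (standard error 0.45).

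Across the 6 pairwise comparisons, Fosl1 was the only one of the 10 genes called, in DKO against WT, KO and KH, where 0.728%, 0.639% and 0.426% of tested genes were called. None of the 10 was called in KO against WT, in KH against WT or in KH against KO, where limma called 0.0296%, 0.0296% and 0% of tested genes. At an unadjusted p below 0.05, limma gave 2 members in DKO against WT (Fosl1 and Egr1) beside 13.8% of tested genes, 1 in KO against WT (Egr1) beside 4.53%, and 0 in KH against WT beside 3.72%. It gave 1 (Fosl1) in DKO against KO beside 6.8%, 1 (Fosl1) in DKO against KH beside 5.71%, and 0 in KH against KO beside 1.09%. The 9 members not called in DKO against WT had adjusted p values of 0.294 to 0.890 by limma. Both DKO libraries lay above both WT libraries in 5 members (Fosl1, Jun, Junb, Egr1 and Ier3), beside 27.8% of tested genes. The median difference between DKO and WT was 0.41 over the 10 genes and 0.02 over all tested genes, that between KO and WT 0.22 against 0, and that between KH and WT 0.13 against 0.

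Within the Fos family the make-up of messages was dominated by Fos and Fosl2. Fos took 48.0% to 77.1% of the summed FPKM of the 4 genes and Fosl2 22.3% to 51.6%, with WT replicate 1 lowest in Fos and highest in Fosl2, and KO replicate 1 the reverse. Fosl1 took 1.88% and 2.06% of the sum in DKO and between 0.0676% and 0.435% in the other 7 libraries. The summed level was 138 and 145 FPKM in DKO and 90.0 to 210 FPKM over the other libraries. In the Jun family, Junb took 44.3% to 54.0% of the sum, Jun 19.5% to 29.7% and Jund 19.4% to 29.2%, and each of the other genotypes overlapped WT in all 3 shares.

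**Figure D3:**
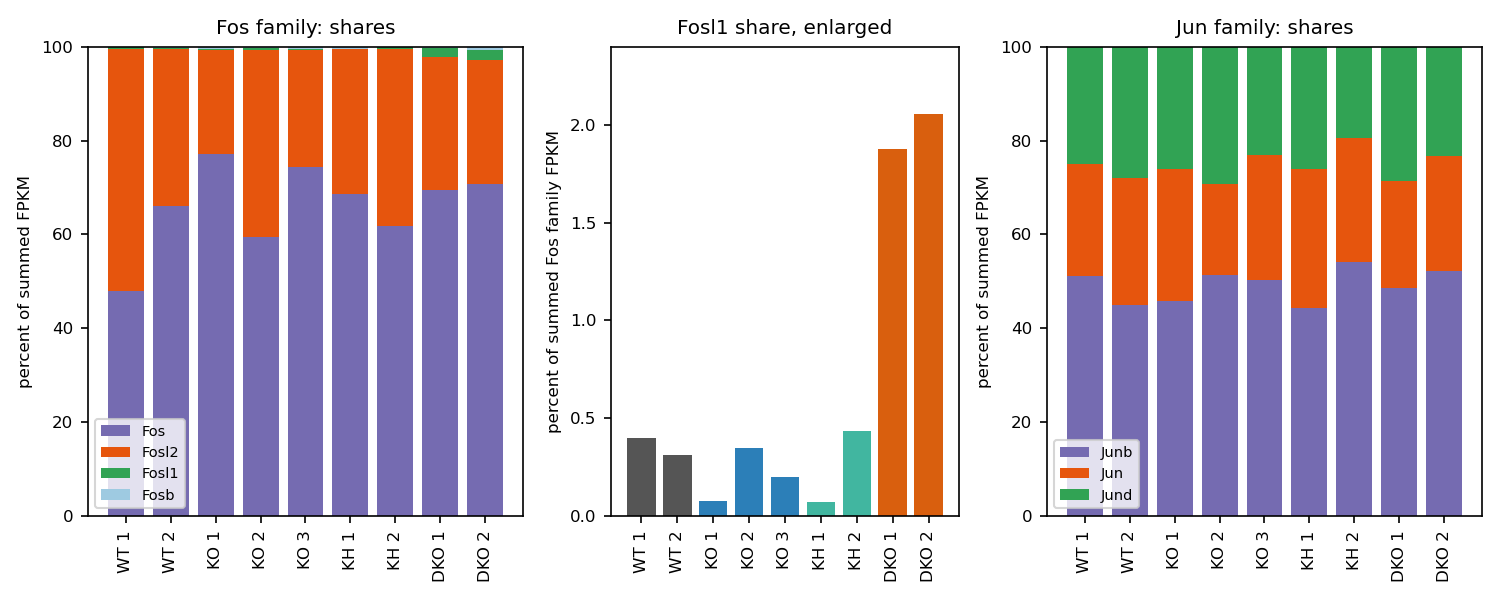
Share of each gene in the summed FPKM of the 4 Fos family genes (left) and the 3 Jun family genes (right) in each library, as stacked bars in percent, with the share of Fosl1 enlarged in the middle on its own axis. Fosl1 reaches 1.88% and 2.06% in DKO and at most 0.435% elsewhere, and in the Jun family every genotype overlaps WT.

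Over the 9 libraries, the 10 genes did not vary as 1 block. These are descriptions over 9 points that share genotypes and library preparation. Fos and Fosb varied together (Pearson's r of log2(FPKM + 1) = 0.80), and their deviations from the genotype means did so as well (r = 0.78). Egr1 followed Fosb (r = 0.75) and Jun (r = 0.72), and less so Fos (r = 0.53). Junb and Ier3 varied together (r = 0.77), and their r with Fos was -0.34 and -0.23. The deviations of Jund from the genotype means went against those of Fosb (r = -0.95) and Fos (r = -0.81). Jund (r = 0.79), Ier3 (r = 0.62) and Junb (r = 0.61) were high in libraries with a high sum of FPKM. Fos and Fosb were lower in them (r = -0.44 and -0.58). The part of these library differences in the correlations was not tested.

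Among 12189 other genes averaging at least 1 FPKM, the one whose log2 values were most like those of Fosl1 was Lce3f, a late cornified envelope gene (r = 0.98). Lce3f had 118 and 103 FPKM in DKO and 1.19 to 3.52 FPKM in the other 7 libraries. The most similar gene was Cnot10 for Fos (r = 0.86), Sema3a for Fosb (0.93), Ncoa3 for Fosl2 (0.98) and Psmb4 for Jund (0.97). Bcl6 was the most similar gene for both Jun (r = 0.83) and Egr1 (r = 0.85), Rps12 for Junb (0.91), Wdr67 for Atf3 (0.93) and Sh3kbp1 for Ier3 (0.96). The number of genes with r above 0.9 was 159 for Jund, 127 for Fosl2, 88 for Fosl1, 41 for Ier3, 3 for Atf3, 1 each for Fosb and Junb, and 0 for Fos, Jun and Egr1.

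**Figure D4:**
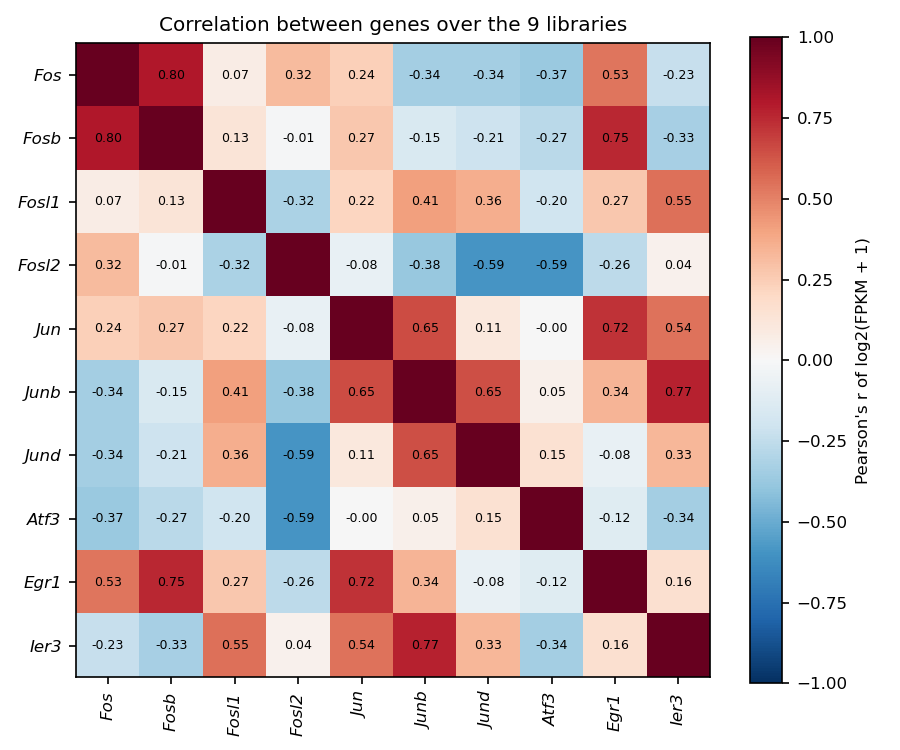
Pearson's r of log2(FPKM + 1) between each pair of the 10 genes over the 9 libraries, as a colour from -1 to 1 with the value printed in each cell. Fos with Fosb (0.80), Junb with Ier3 (0.77) and Egr1 with Fosb (0.75) are the highest pairs, and Fosl1 is at most 0.55 with any other member.

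The rest of the pathway was followed in lists of related genes. Of 16 tested partners and related bZIP genes, 0 were called in any comparison. By size, the list gave Atf7, Ddit3 and Maf, of which Maf, a regulator of keratinocyte differentiation, averaged 3.86 FPKM in DKO and 6.42 FPKM in WT (unadjusted p = 0.0477, adjusted p = 0.359 by limma). Ddit3, which dimerises with C/EBP proteins in the stress response, averaged 17.5 FPKM in DKO and 10.5 FPKM in WT (adjusted p = 0.404), and Atf7 41.2 and 23.1 FPKM (adjusted p = 0.480). Upstream, 0 of 31 genes of the ERK, JNK and p38 pathways and SRF were called. The ERK phosphatase genes Dusp6 and Dusp7 averaged 16.8 FPKM in DKO against 9.32 FPKM in WT and 75.9 against 45.2 FPKM (adjusted p = 0.480 and 0.276 by limma). The median difference between DKO and WT was 0.21 over the bZIP list and 0.03 over the signalling list, against 0.02 over all tested genes.

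Of 39 other immediate early genes tested, 1, Arc, was called in DKO against WT, KO and KH. These comparisons called 0.728%, 0.639% and 0.426% of tested genes. Arc, best known as a synaptic gene induced through SRF, had 2.02 and 4.98 FPKM in DKO and between 0.0860 and 0.257 FPKM in the other 7 libraries, none of which overlapped DKO. Arc rose in DKO by 1.92 over WT on the log2(FPKM + 1) scale (standard error 0.27, adjusted p = 0.0160 by limma), by 1.89 over KO (adjusted p = 0.0106) and by 1.81 over KH (adjusted p = 0.0278). Against WT the Arc call was lost in 3 of 18 alternatives, among them without WT replicate 1 or WT replicate 2 (adjusted p = 0.136 and 0.203), and against KO in 4, among them without KO replicate 3 or WT replicate 2 (0.0620 and 0.0530). Against KH it was lost in 14 of 18 alternatives, with 0.0532 to 0.132 without any 1 of the 7 KH, KO and WT libraries. The remaining 38 genes of the list were not called in any comparison, and the list's median difference between DKO and WT was 0.11. Of 15 heat shock genes, which answer to protein stress, 1 was called in DKO against KH, beside 0.426% of tested genes. This was Hspb8, at 56.5 and 71.9 FPKM in DKO and 14.9 and 23.1 FPKM in KH (adjusted p = 0.0446 by limma). Hspb8 was at 36.7 and 39.9 FPKM in WT and was not called in DKO against WT (adjusted p = 0.307 by limma). The call against KH was lost in 13 of 18 alternatives, including without any 1 library except KO replicate 1.

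Of 25 tested genes described as AP-1 targets in keratinocytes, 2 were called in DKO against WT, Krt6a and Sprr1b, beside 0.728% of tested genes. Against KO and against KH, 2 were called, Krt6a and Areg, beside 0.639% and 0.426% of tested genes. All 3 genes rose in DKO. Krt6a, a keratin of wounded and stressed epidermis, had 156 and 629 FPKM in DKO and between 3.19 and 6.82 FPKM in the other 7 libraries. Krt6a rose by 5.71 over WT (standard error 0.56, adjusted p = 0.00222 by limma), 5.98 over KO (adjusted p = 0.000870) and 5.78 over KH (adjusted p = 0.00238). The Krt6a call against WT was lost without WT replicate 2 (adjusted p = 0.0509 by limma) and with no filter on low values (0.0886), that against KO with no filter (0.0614), and that against KH with no filter (0.114) and with only the 2 genotypes fitted (0.0662). Krt6a belongs to a family of near-identical keratin genes, so its share of reads is uncertain.

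Sprr1b is a cornified envelope precursor whose promoter, with a TGAATCA match, is shown above. Sprr1b had 444 and 912 FPKM in DKO, 66.1 and 75.0 FPKM in KH, 71.6, 218 and 122 FPKM in KO, and 56.5 and 90.0 FPKM in WT. Its DKO libraries lay above all others, and it rose by 3.14 over WT (standard error 0.52, adjusted p = 0.0370 by limma). Sprr1b was not called against KO (2.35, adjusted p = 0.0998 by limma) or KH (3.16, adjusted p = 0.0505). That Sprr1b call was lost in 9 of 18 alternatives, with 0.0614 to 0.267 without any 1 of DKO replicates 1 and 2, KH replicates 1 and 2, WT replicates 1 and 2 or KO replicate 3. Areg, an EGF receptor ligand with TGACGTCA in its promoter, had 2.39 and 2.11 FPKM in DKO and between 0.618 and 1.05 FPKM in the other libraries. Areg rose by 0.85 over KO (adjusted p = 0.0309 by limma) and by 0.95 over KH (adjusted p = 0.0376), and was not called against WT (0.69, adjusted p = 0.0985). The Areg calls were lost in 13 and 17 of 18 alternatives: against KO without any 1 of the DKO, KO and WT libraries (0.0859 to 0.190), and against KH without any 1 of the 9 libraries (0.0589 to 0.193). The median difference of the target list was 0.32 between DKO and WT, -0.04 between KO and WT and -0.07 between KH and WT, against 0.02, 0 and 0 over all tested genes.

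**Figure D5:**
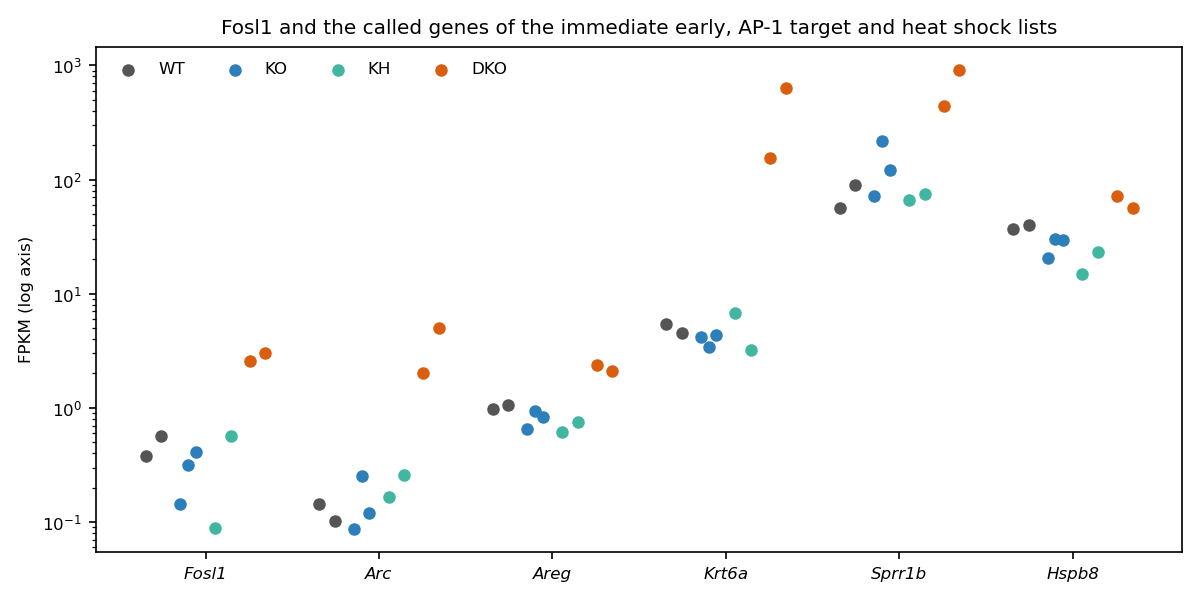
FPKM on a log axis for Fosl1 and for the genes called from the immediate early, AP-1 target and heat shock lists, with 1 dot per library coloured by genotype. In Fosl1, Arc, Areg, Krt6a, Sprr1b and Hspb8 both DKO dots lie above the other 7 libraries.

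Among markers listed for other cells, S100a8 and S100a9 set DKO apart, while the sums of the other immune, melanocyte and red blood cell markers overlapped other genotypes. The 12 immune markers summed to 78.0 to 112 FPKM in DKO, 22.3 to 81.8 FPKM in KH, 26.8 to 51.1 FPKM in KO and 15.6 to 28.8 FPKM in WT. Of the 11 tested, S100a8 and S100a9 were called; they are abundant in neutrophils and are also made by stressed keratinocytes. S100a8 was at 15.3 and 15.2 FPKM in DKO and at most 1.30 FPKM elsewhere, and S100a9 at 40.5 and 36.9 FPKM in DKO and at most 8.38 FPKM elsewhere. Both were called in DKO against WT (adjusted p = 0.00343 and 0.00788 by limma), KO and KH. These comparisons called 0.728%, 0.639% and 0.426% of tested genes. The S100a8 call was lost with no filter on low values against WT, KO and KH (0.104, 0.0684 and 0.105), with a pseudocount of 0.1 against WT and KH (0.0960 and 0.0927), and against WT without DKO replicate 1 (0.0506). Against WT, S100a9 was at 0.0758 to 0.132 without DKO replicate 1, DKO replicate 2 or WT replicate 2. Against KO the S100a9 call was lost at 0.0591 to 0.223 without either DKO library, KO replicate 1, KO replicate 3 or WT replicate 2, and against KH at 0.0514 to 0.193 without either DKO library, KH replicate 1, KO replicate 3 or WT replicate 2. The other 10 immune markers summed to 25.9 to 56.3 FPKM in DKO, 19.6 to 75.2 FPKM in KH, 21.2 to 42.3 FPKM in KO and 13.2 to 23.3 FPKM in WT, so that DKO lay above WT and overlapped KH and KO. The melanocyte sums given beside Egr1 were also highest on average in DKO, overlapping KH. Red blood cell markers summed to 366 to 1289 FPKM in DKO and 13.4 to 531 FPKM elsewhere. The part of these cells in the Fosl1 difference was not tested.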

How the data were processed

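Poly(A) RNA from the epidermis of 9 embryos was sequenced by the authors as stranded paired-end libraries. Per the labels and the study's methods, the authors mapped reads to mm10 with TopHat 1.4.1 and computed FPKM per gene with Cuffdiff 2.2.0; how Cuffdiff scaled libraries is not given in the sources used here. The deposited table also holds the authors' mean FPKM for each genotype, which was not used. FPKM is not a read count and the table gives no depth per library, so no counting interval is given; the study states mapped reads for its libraries, which were not used here.

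Libraries were grouped by sample title. Genes averaging above 0.1 FPKM in at least 1 genotype were kept (16897), and log2(FPKM + 1) of the 9 libraries was fitted with limma 3.58.1 in R 4.3.3 (4 genotype means, no covariate, eBayes with trend, 5 residual degrees of freedom). Tests were two-sided, with Benjamini-Hochberg adjustment over all tested genes in each of 6 comparisons. A call needed an adjusted p below 0.05 and more than 2-fold in average FPKM. The fits were tested on simulated data. As 18 alternatives, the fit was repeated without a filter, with a filter at 1 FPKM, with a pseudocount of 0.1, with only the 2 genotypes compared, without the trend, after rescaling to TPM or by median ratios, with arrayWeights, with a replicate block, and without each library in turn.

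The members, lists and tests were chosen with earlier results of these data known. Named beside the members are, from each pathway list, the genes called in any comparison, or else up to 3 genes with the largest difference between DKO and WT among those at 1 FPKM or more whose libraries did not overlap, and for likeness the 1 most correlated gene of each member. The Ccdc85b and Xist values and the motif TGACATCA were added after values were seen. Tables were made with Python 3.11.15, pandas 2.3.3, numpy 2.4.6 and matplotlib 3.10.9. Splicing was not analysed here, and 1 gene that the rule gave is not reported here.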

Additional observations from a re-analysis of the deposited data

How the results depend on the processing

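Of the 10 genes, 1 was called in DKO against WT, KO and KH. That count fell to 0 in all 3 comparisons with a pseudocount of 0.1 (Fosl1 adjusted p = 0.135, 0.0603 and 0.107 by limma) and with no filter on low values (0.196, 0.121 and 0.206), and against KH when only the 2 genotypes compared were fitted (0.231); the cause was not tested. It ranged from 0 to 1 when 1 library was left out, in each of these comparisons. In KO against WT, KH against WT and KH against KO it was 0 in all alternatives. The log2 difference of Fosl1 stayed positive in all 18 alternatives of each DKO comparison, between 1.27 and 3.02. Over all genes, calls numbered 123 in DKO against WT and ranged from 41 without a filter to 556 with arrayWeights, 108 in DKO against KO (49 to 152), 72 in DKO against KH (33 to 102), and 5 each in KO against WT (0 to 17) and KH against WT (0 to 33). Rescaling to TPM changed the calls up and down from 81 and 42 to 96 and 82 against WT, from 88 and 20 to 103 and 49 against KO, and from 65 and 7 to 71 and 26 against KH, where it shifted the median of all genes by -0.11; Fosl1 remained called upward in all 3.

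Egr1 stayed above WT in all alternatives, by 0.54 to 1.44 in DKO, and was called in none. Rescaling to TPM turned its difference between DKO and KH to -0.021, and leaving out 1 library moved it from -0.29 to 0.60, and that between DKO and KO from -0.36 to 0.54. Leaving out 1 library also turned the sign of uncalled differences from WT. The ranges were -0.27 to 1.12 (DKO), -0.14 to 1.24 (KO) and -0.49 to 0.90 (KH) for Fos, -0.10 to 0.29 (KH) for Fosb, -0.43 to 0.10 (KH) for Fosl1, -0.036 to 0.63 (KO) and -0.25 to 0.51 (KH) for Junb, -0.28 to 0.033 (KH) for Jund, -0.11 to 0.32 (DKO) and -0.069 to 0.37 (KO) for Atf3, and -0.32 to 0.19 (KO) and -0.53 to 0.77 (KH) for Ier3. Among the 26 other differences between genotypes without Esrp1, 17 changed sign in at least 1 alternative and 0 were called.

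Replicate numbers did not pair the libraries: over 12 same-numbered pairs, the correlation of deviations from genotype means ran from -0.57 to 0.47, and 4 pairs were above 0.1. With the replicate block, Fosl1 was still called against WT (1.37), KO (1.63) and KH (1.54), 1 member in each, while calls over all genes fell to 67, 52 and 43. Fitting only the 2 genotypes compared together with a block of crossed numbers, added after the data were seen, called 1 member (308 genes) in DKO against KH, where the 2 genotypes without a block gave 0 members (33 genes), and 0 members (1 gene) in KH against WT. The sample descriptions carry other numbers than the titles, and the crossed pairing of DKO with KH joins the DKO and KH libraries that share a description number. By the descriptions, 6 pairs shared a number, with r from -0.23 to 0.54. The 4 pairs among DKO, KH and KO were above 0.1 and the pairs with WT were not, so pairing by these numbers held for part of the libraries at most. A replicate block of these numbers, also added after the data were seen, left 1 residual degree of freedom. By limma it called 0 members and 0 genes in all 6 comparisons, with 409 to 2088 genes and 0 to 2 members at an unadjusted p under 0.05, and it gave a difference of Fosl1 in DKO of 1.02 from WT, 1.37 from KO and 1.28 from KH.

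With 2 or 3 embryos per genotype and 5 residual degrees of freedom, differences of 0.5 to 1 on the log2 scale in the variable genes (Fos, Ier3, Egr1) were within the intervals. The table gives no read counts, and Fosl1, Fosb and Arc lie near or below 1 FPKM outside DKO, where the pseudocount sets the size of a difference. The genotypes also differ in sex, and the same 2 WT libraries serve 3 comparisons.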
